A study of Homo sapiens with 3 samples.

Results

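The eukaryotic translation initiation factors were followed through RBCK1 depletion in Caki-1 cells, an established human line of clear cell renal cell carcinoma. The 55 genes are the protein-coding entries of the deposited table whose symbol begins with EIF and a digit from 1 to 6, out of 19233 protein-coding entries and 44591 entries in all. Cells carried a non-targeting siRNA (si-Control) or 1 of 2 siRNAs against RBCK1, labelled si-HOIL-1#1 and si-HOIL-1#2 after the other name of the protein and called si-RBCK1 #1 and si-RBCK1 #2 here. RNA was taken after 48 h. The 3 groups share the cell line and the transfection, and each is 1 library. No difference below could be set against a spread between replicates, and the siRNAs, being different reagents, were never averaged. Values are listed throughout in the order si-Control, si-RBCK1 #1, si-RBCK1 #2.

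Initiation factors bring the ribosome to the start codon of an mRNA. The cap is bound by eIF4E, which joins the scaffold eIF4G and the helicase eIF4A in the eIF4F complex. eIF3 and eIF1 sit on the small ribosomal subunit, eIF2 delivers the initiator tRNA, and eIF5 and eIF5B act when the start codon has been found and the large subunit joins. Cells slow initiation through kinases that phosphorylate the alpha subunit of eIF2 and through 4E-BPs, which keep eIF4E from eIF4G when mTOR is inactive.

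Levels are in RPKM, reads scaled to gene length and to the size of the library. The depth was recovered from the steps between low values, at 36926834, 40442939 and 36344428 reads for si-Control, si-RBCK1 #1 and si-RBCK1 #2. Markers of renal epithelium were partly present, with KRT8, KRT18, PAX8 and CDH6 at or above a mean of 1 RPKM and KRT19, EPCAM, CDH1, PAX2 and LHX1 below it. All 4 endothelial markers were below 1 RPKM, as were the leukocyte markers PTPRC, CD3E and CD14 and 5 of the 6 fibroblast markers. The leukocyte marker CD68, which encodes a lysosomal protein, and the fibroblast marker COL1A1 passed, and the summed level of the fibroblast list was 5.77, 4.16 and 5.24 RPKM. Summed levels were higher in both si-RBCK1 libraries for the 9 renal markers named here (287.4, 403.3 and 522.6 RPKM). The sum of the 4 leukocyte markers was also higher (41.8, 51.4 and 52.4 RPKM). Nearly all of that sum was CD68, whose highest value was 52.3 RPKM. The part of these markers in the results was not tested.

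RBCK1, the targeted gene, was at 33.3, 9.97 and 12.3 RPKM, from 5294, 1735 and 1917 reads. The sense strands of the siRNAs, as listed with the study, are shown because they define the treatments, with capitals on the 7 bases that a transcript would share if it paired with bases 2 to 8 of the guide strand.
si-RBCK1 #1: ggtgcaccttcATCAACAa
si-RBCK1 #2: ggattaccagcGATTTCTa
Both strands lie whole in the longest protein-coding RBCK1 transcript of GENCODE release 29, and in 0 of the 48 initiation factor transcripts used below. The 7 bases of si-RBCK1 #1 occur in the longest transcript of 8 of these 48 genes (16.7%, against 23.8% of 10554 expressed protein-coding genes). Those of si-RBCK1 #2 occur in 14 (29.2%, against 29.2%). Such a match is a description of letters and not a site of action.

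Of the 55 genes, 48 averaged 1 RPKM or more and had usable values, and these 48 are summarized below. Chosen by symbol, they include regulators such as the 4 eIF2 alpha kinases and EIF4EBP2, and are all called initiation factors for short. Ratios to si-Control were taken on the log2(RPKM + 1) scale, which understates changes of low genes. By the median, initiation factor mRNAs were slightly higher in both si-RBCK1 libraries, by 0.23 (si-RBCK1 #1) and 0.21 (si-RBCK1 #2) in log2 units. The medians over 10775 protein-coding genes were 0.03 and 0.05. With si-RBCK1 #1, 30 of the 48 were higher and 18 lower, and with si-RBCK1 #2, 32 were higher and 16 lower, where 52.4% and 54.6% of the protein-coding genes were higher. The mean over the 48 genes was smaller than the median, at 0.14 and 0.06, and no mean over all protein-coding genes was taken beside it. The summed level of the 48 mRNAs was 4282, 4385 and 4157 RPKM in the order si-Control, si-RBCK1 #1 and si-RBCK1 #2, so that the total differed little while its composition differed.

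**Figure D1:**
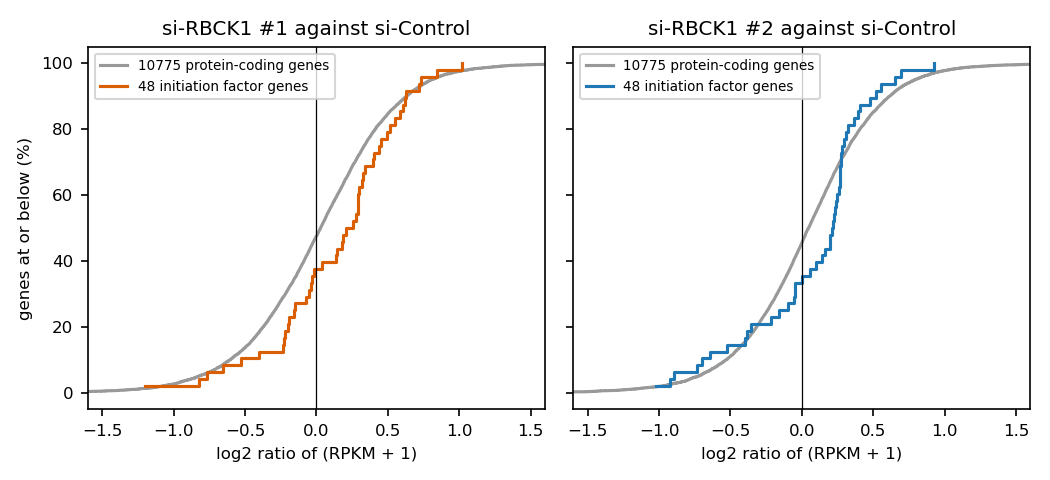
Cumulative share of genes (y axis, percent) at or below each log2 ratio of RPKM + 1 to si-Control (x axis), for 48 initiation factor genes (colored) and 10775 protein-coding genes (grey), with 1 panel per siRNA. The colored curves lie to the right of the grey ones near the middle, at medians of 0.23 and 0.21 against 0.03 and 0.05, and close to them at the ends.

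Larger changes were about as frequent among initiation factors as among other genes. With si-RBCK1 #1, 12 of the 48 (25%) differed at least 1.5-fold from si-Control, against 22.4% of protein-coding genes. Of these 12, 8 were higher (16.7% against 11.7%) and 4 lower (8.33% against 10.6%). With si-RBCK1 #2, 9 of the 48 (18.8%, against 19.4%) passed the same limit, 3 higher (6.25% against 11.1%) and 6 lower (12.5% against 8.38%). In the same direction with both siRNAs, 7 genes passed (14.6% against 13.5%), 3 higher (6.25% against 7.59%) and 4 lower (8.33% against 5.89%). EIF3B, EIF3G and EIF4G1 were the 3 higher genes, and EIF1, EIF1B, EIF5B and EIF4G3 the 4 lower ones. None of the 48 differed 2-fold with both siRNAs, against 2.62% of protein-coding genes. Both comparisons share the si-Control library, so the second is no independent repeat of the first.

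Whole reads could be recovered for all 48 genes, between 370 and 52282 per library. They are the smallest numbers that the 3 values allow, and exact Clopper-Pearson intervals (95%) on them cover counting error only. On reads alone, the intervals of both ratios lay above 0 for 27 of the 48 genes and below 0 for 14, against 34.9% and 28.8% of 10760 protein-coding genes with whole reads. The 48 were also read more deeply, with a median of 3618.5 reads in the lowest library against 1064, which makes their intervals narrower.

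**Figure D2:**
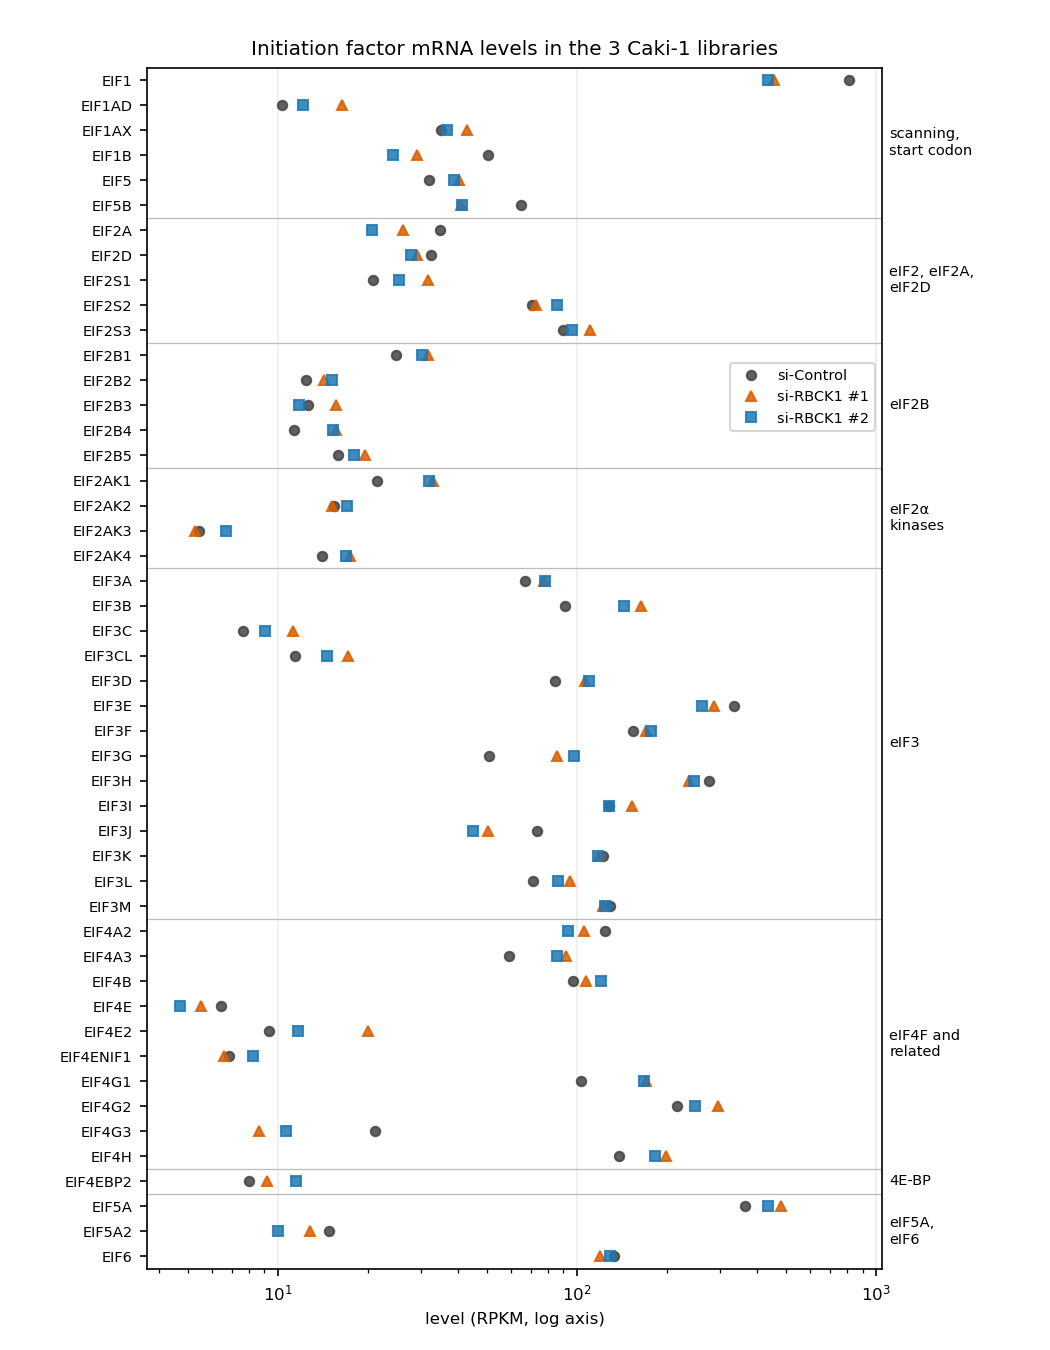
Level of each of the 48 initiation factor mRNAs in the 3 libraries (x axis, RPKM on a log axis; 1 row per gene, grouped by role). EIF1 and EIF4G3 show the si-Control point well to the right of both si-RBCK1 points, and EIF3B, EIF3G and EIF4G1 show it to the left.

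Among the factors of scanning and start codon choice, EIF1 and its close relative EIF1B were lower with both siRNAs. EIF1 guards the fidelity of start codon selection and was the most abundant initiation factor mRNA here, at rank 56 of the 10775 genes in si-Control. It was at 808, 456 and 435 RPKM, from 39585, 24437 and 20959 reads. Both si-RBCK1 libraries were below the control, at 56.4% and 53.8% of it, with log2 ratios on reads of -0.83 (interval -0.85 to -0.80) and -0.89 (interval -0.92 to -0.87). EIF1B was at 50.3, 29.1 and 24.3 RPKM, from 939, 596 and 446 reads. It stood at 58.0% and 48.3% of si-Control, with log2 ratios on reads of -0.79 (interval -0.94 to -0.64) and -1.05 (interval -1.22 to -0.89). The level of EIF1 was 16.1, 15.6 and 17.9 times that of EIF1B in the 3 libraries, so the pair moved nearly in parallel.

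EIF1 lies on chromosome 17 from 39845127 to 39847898 and EIF1B on chromosome 3 from 40351173 to 40353915 of hg19, the build named in the submitters' processing notes, both read from the plus strand. As separate genes that differed alike, they are shown with the 250 bases before their starts, from RefSeq promoters on GRCh38.p14, beside those of EIF4G1 and EIF3B, which differed the other way. The regions are chr17:41688635-41688884 for EIF1, chr3:40309457-40309706 for EIF1B, chr3:184314356-184314605 for EIF4G1 and chr7:2354577-2354826 for EIF3B, all on the plus strand. Capitals mark matches, on either strand, to the E-box CACGTG, the SP1 letters GGGCGG, the ETS letters CCGGAAG, the letters CCAAT and the C/EBP-ATF element TGATGNAA.
EIF1: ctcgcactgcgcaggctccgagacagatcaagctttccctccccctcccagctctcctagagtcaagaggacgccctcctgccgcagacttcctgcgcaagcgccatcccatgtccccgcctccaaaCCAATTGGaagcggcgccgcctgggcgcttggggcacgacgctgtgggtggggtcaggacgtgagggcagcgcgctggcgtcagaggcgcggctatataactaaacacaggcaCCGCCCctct
EIF1B: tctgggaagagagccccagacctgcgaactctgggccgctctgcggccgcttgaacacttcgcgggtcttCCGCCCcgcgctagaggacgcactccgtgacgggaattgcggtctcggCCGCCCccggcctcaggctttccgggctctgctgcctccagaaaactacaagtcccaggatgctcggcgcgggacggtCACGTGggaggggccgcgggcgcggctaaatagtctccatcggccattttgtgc
EIF4G1: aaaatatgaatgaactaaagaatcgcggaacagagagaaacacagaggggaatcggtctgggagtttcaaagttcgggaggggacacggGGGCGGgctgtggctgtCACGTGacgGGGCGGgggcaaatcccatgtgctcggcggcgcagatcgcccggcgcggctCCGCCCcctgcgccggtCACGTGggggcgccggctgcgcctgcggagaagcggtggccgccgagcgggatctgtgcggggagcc
EIF3B: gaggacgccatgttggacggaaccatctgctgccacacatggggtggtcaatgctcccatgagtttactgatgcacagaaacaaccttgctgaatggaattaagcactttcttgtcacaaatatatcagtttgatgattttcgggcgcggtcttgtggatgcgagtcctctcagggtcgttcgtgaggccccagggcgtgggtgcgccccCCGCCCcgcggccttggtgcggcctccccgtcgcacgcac
The EIF1 stretch holds 2 CCAAT matches that overlap on opposite strands and 1 SP1 match. The EIF1B stretch holds 2 SP1 matches and 1 E-box, the EIF4G1 stretch 3 SP1 matches and 2 E-boxes, and the EIF3B stretch 1 SP1 match. The E-box is the letter motif bound by MYC and its relatives.

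Promoters of the same length were found for 40 of the 48 genes. EIF2AK1, EIF2S2, EIF3A, EIF3CL, EIF3E, EIF3G, EIF3H and EIF3L were not matched. An E-box was present in 11 of the 40 (27.5%), against 9.49% of 8546 expressed protein-coding genes and 6.49% of all 27305 promoters of the table. The 11 are EIF1B, EIF2AK2, EIF2B3, EIF3F, EIF3K, EIF4A3, EIF4B, EIF4E, EIF4G1, EIF4H and EIF5A2. Their log2 ratios ran from -0.77 to 0.72 with si-RBCK1 #1 and from -1.02 to 0.69 with si-RBCK1 #2, with medians of 0.14 in each library, against medians of 0.28 and 0.21 for the other 29. Genes with an E-box were thus found among those higher and those lower. The ETS letters were in 20% of the 40 (17.5% of expressed genes), CCAAT in 40% (35.6%), SP1 in 65% (69.4%) and the C/EBP-ATF element in 0 of 40 (1.31%).

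EIF5B, the GTPase that joins the large ribosomal subunit, was lower by nearly the same amount with both siRNAs. Its gene lies on chromosome 2 from 99953834 to 100016728 (plus strand). It was at 64.9, 40.9 and 41.3 RPKM, from 11256, 7769 and 7044 reads. The log2 ratios on reads were -0.67 (interval -0.71 to -0.62) and -0.65 (interval -0.70 to -0.61). EIF5, which makes eIF2 hydrolyze its GTP, went the other way, at 32.1, 40.2 and 38.8 RPKM, with log2 ratios on reads of 0.33 and 0.27. The level of EIF5 was 0.494 of that of EIF5B in si-Control and 0.983 and 0.940 of it in the si-RBCK1 libraries. EIF1AX, which opens the small subunit for scanning together with eIF1, was at 35.2, 42.9 and 36.7 RPKM and did not follow EIF1. EIF1AD, a gene named for its eIF1A-like domain, was at 10.3, 16.4 and 12.2 RPKM and passed 1.5-fold only with si-RBCK1 #1. The EIF1AX ratio was 0.28 with si-RBCK1 #1 and 0.06 with si-RBCK1 #2.

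For eIF2, the carrier of the initiator tRNA, the 3 subunits differed upward and mostly less than 1.5-fold. The exception was EIF2S2 with si-RBCK1 #1, within counting error of si-Control (log2 ratio on reads 0.038, interval -0.0087 to 0.085). EIF2S1, the alpha subunit that the stress kinases phosphorylate, was at 20.8, 31.8 and 25.3 RPKM, from 3205, 5362 and 3831 reads in the order si-Control, si-RBCK1 #1 and si-RBCK1 #2. The log2 ratios were 0.59 and 0.27, so that only the first passed the limit. The beta subunit EIF2S2 was at 70.7, 72.6 and 85.4 RPKM and the gamma subunit EIF2S3 at 89.6, 110.5 and 95.9 RPKM. The alternative tRNA carriers differed downward. EIF2A was at 34.8, 26.2 and 20.6 RPKM, with log2 ratios of -0.40 and -0.73, and EIF2D was at 32.5, 29.2 and 27.9 RPKM, with log2 ratios of -0.15 and -0.21.

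The 5 subunits of eIF2B, the exchange factor that reloads eIF2 with GTP, lay between 11.3 and 24.7 RPKM in si-Control. All 5 were higher with si-RBCK1 #1 and 4 of 5 with si-RBCK1 #2, where 52.4% and 54.6% of protein-coding genes were higher. Their median log2 ratios were 0.29 and 0.27. None reached 1.5-fold, against 22.4% and 19.4% of protein-coding genes. EIF2B4 differed most, at 11.3, 15.7 and 15.3 RPKM, and EIF2B3 was the exception at 12.6, 15.7 and 11.8 RPKM.

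Of the 4 kinases that phosphorylate the eIF2 alpha subunit, EIF2AK1, the heme-regulated kinase HRI, differed most. It was at 21.4, 33.0 and 31.9 RPKM, from 3526, 5965 and 5179 reads. The log2 ratios on reads were 0.63 (interval 0.57 to 0.69) and 0.58 (interval 0.52 to 0.64). EIF2AK1 overlaps AIMP2 on the opposite strand over 1588 bases, and AIMP2 was at 35.6, 23.7 and 24.7 RPKM. EIF2AK4, the amino acid sensor GCN2, was at 14.1, 17.4 and 16.8 RPKM. EIF2AK2, the double-stranded RNA sensor PKR, was at 15.3, 15.1 and 17.03 RPKM, and EIF2AK3, the endoplasmic reticulum kinase PERK, at 5.42, 5.28 and 6.68 RPKM. The last pair was slightly below the control with si-RBCK1 #1, within counting error, and above it with si-RBCK1 #2.

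The subunits of eIF3, the largest initiation factor, did not differ in 1 direction. Of 14 eIF3 genes, 9 were higher and 5 lower with each siRNA, where 52.4% and 54.6% of protein-coding genes were higher. The median log2 ratios of eIF3 were 0.23 and 0.20, against 0.03 and 0.05 over protein-coding genes. The eIF3 median with si-RBCK1 #2 was 0.10 without overlapping genes or near-identical copies and 0.13 as a mean. The summed level of the eIF3 genes differed by 0.08 and 0.03 on the log2 scale. EIF3B and EIF3G, which carry RNA recognition motifs and sit together with EIF3I in a mobile module of eIF3, differed most upward. EIF3B was at 91.0, 163.9 and 143.8 RPKM, from 10366, 20438 and 16115 reads, or 180.0% and 158.0% of the control. EIF3G was at 50.9, 85.4 and 97.5 RPKM, from 1060, 1947 and 1998 reads, or 167.7% and 191.5% of the control. EIF3B lies on chromosome 7 from 2394474 to 2420380 (plus strand) and EIF3G on chromosome 19 from 10225690 to 10230600 (minus strand). Both si-RBCK1 libraries stood above si-Control for each gene, but si-RBCK1 #1 was the higher for EIF3B and si-RBCK1 #2 for EIF3G. EIF3I, a scaffold of WD repeats in the same module, was at 127.4, 152.3 and 127.6 RPKM, with log2 ratios of 0.26 and 0.0026.

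EIF3J, the loosely bound subunit at the mRNA entry channel, was the lowest of the eIF3 genes relative to si-Control. It was at 73.3, 50.5 and 44.8 RPKM, from 6924, 5225 and 4163 reads, with log2 ratios of -0.53 and -0.70. The most abundant eIF3 mRNAs were also lower, EIF3E at 333.6, 286.8 and 261.0 RPKM and EIF3H at 276.0, 236.0 and 246.6 RPKM. EIF3K (122.3, 118.8 and 117.5 RPKM) and EIF3M (128.3, 122.0 and 124.0 RPKM) stayed within a log2 ratio of -0.073 of si-Control. The other subunits were moderately higher. EIF3D, which can bind the cap of some mRNAs itself, was at 84.6, 106.2 and 109.5 RPKM, EIF3L at 71.1, 94.3 and 86.1 RPKM, EIF3A at 66.9, 77.5 and 78.03 RPKM, and EIF3F at 154.1, 170.2 and 176.5 RPKM. EIF3C (7.66, 11.2 and 9.02 RPKM) and its near-identical copy EIF3CL (11.4, 17.2 and 14.6 RPKM) share sequence, and their low values are uncertain because reads may be split or dropped between them.

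**Figure D3:**
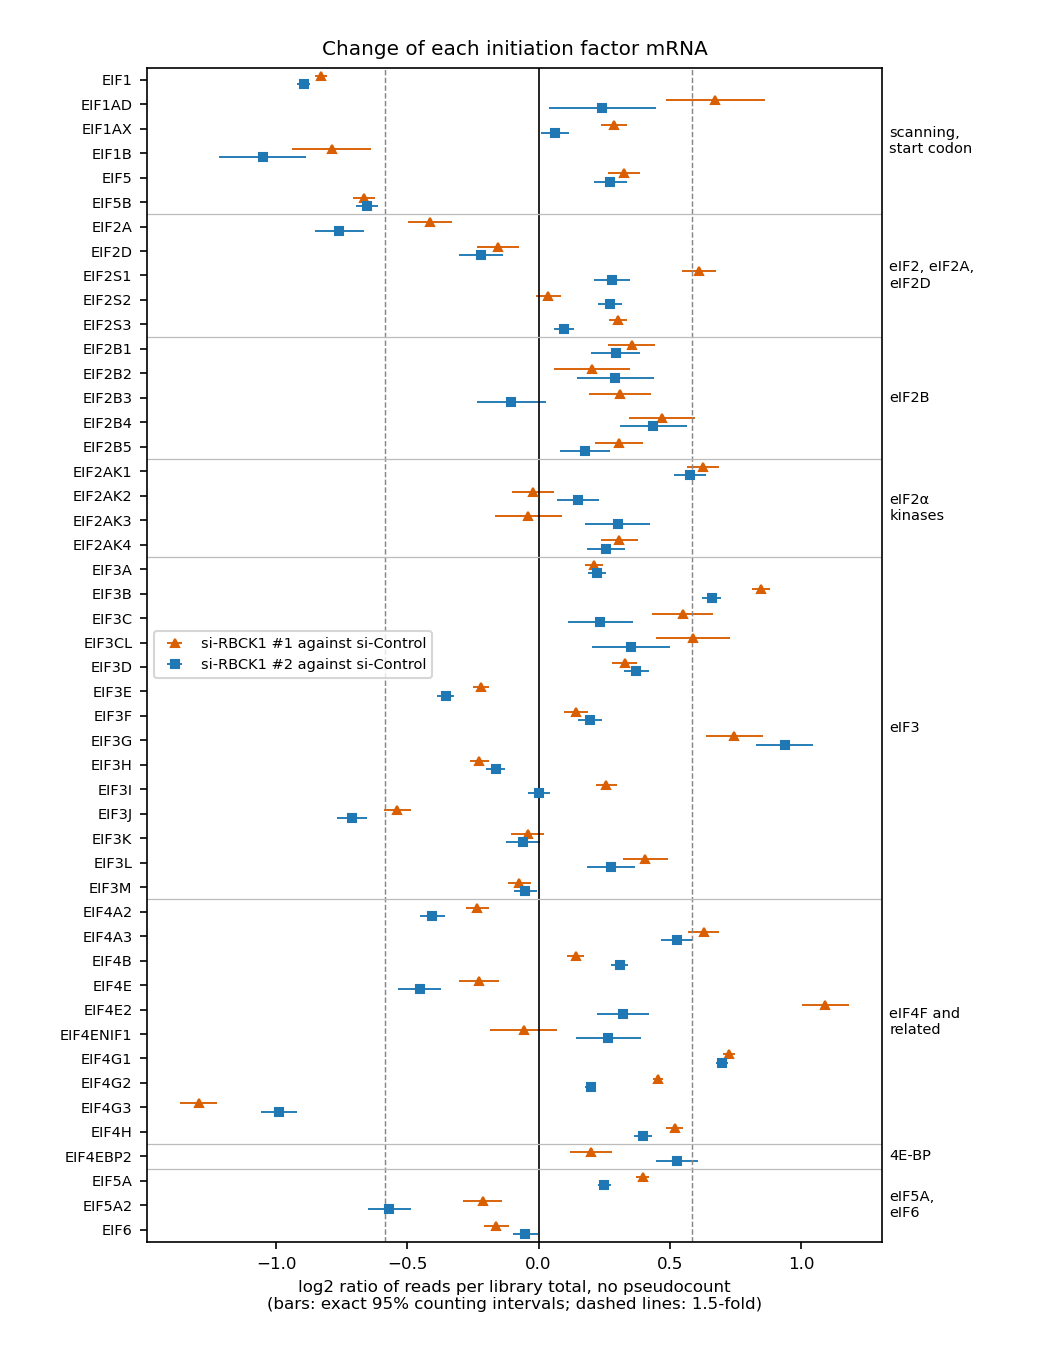
Log2 ratio of reads per library total to si-Control (x axis, no pseudocount) for 48 initiation factor genes (1 row each), with si-RBCK1 #1 as triangles and si-RBCK1 #2 as squares. Bars are exact 95% counting intervals and dashed lines mark 1.5-fold. EIF4G3, EIF1, EIF1B and EIF5B lie left of the dashed line with both siRNAs, and EIF3B, EIF3G and EIF4G1 lie right of it.

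In the cap-binding complex, the scaffold paralogs differed in opposite directions. EIF4G1, the main scaffold that holds eIF4E, eIF4A and the poly(A)-binding protein, was at 102.8, 170.2 and 167.1 RPKM, from 23722, 42996 and 37933 reads. It stood at 165.5% and 162.5% of the control, with log2 ratios on reads of 0.73 (interval 0.70 to 0.75) and 0.70 (interval 0.68 to 0.72). EIF4G3, the less abundant scaffold of the same kind, was at 21.1, 8.61 and 10.6 RPKM, from 5352, 2390 and 2655 reads. It stood at 40.8% and 50.4% of si-Control, with log2 ratios on reads of -1.29 (interval -1.36 to -1.22) and -0.99 (interval -1.06 to -0.92), the lowest of the 48 genes with si-RBCK1 #1. The level of EIF4G1 was 4.87 times that of EIF4G3 in si-Control and 19.8 and 15.7 times in the si-RBCK1 libraries. EIF4G1 lies on chromosome 3 from 184032283 to 184053146 (plus strand) and EIF4G3 on chromosome 1 from 21132785 to 21503381 (minus strand), and the small RNA genes SNORD66 and MIR1256 inside them are listed at 0. EIF4G2, the relative that lacks the eIF4E-binding part, was at 216.2, 296.6 and 248.2 RPKM.

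EIF4E, the cap-binding protein, was among the lowest initiation factor mRNAs per length, at 6.45, 5.52 and 4.72 RPKM, from 2883, 2698 and 2073 reads. The smallest gene length that gave whole reads for it was 12096 nt, the longest such length among the 48. A long gene lowers the level per length, but the length used for scaling is not given. Its log2 ratios on reads were -0.23 (interval -0.30 to -0.15) and -0.45 (interval -0.54 to -0.37). EIF4E2, a cap-binding relative that serves repression of certain mRNAs, was at 9.35, 19.9 and 11.7 RPKM, from 1486, 3471 and 1827 reads. It stood at 213.3% of the control with si-RBCK1 #1 and at 124.9% with si-RBCK1 #2. EIF4ENIF1, which carries eIF4E into the nucleus, was at 6.86, 6.60 and 8.25 RPKM.

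EIF4A1, the main eIF4A helicase and a gene that dividing cells use, is listed at 0 in each library. The entry SENP3-EIF4A1, a read-through transcript on the same strand that spans all of EIF4A1, is listed at 0.824, 0.643 and 0.850 RPKM. The small nucleolar RNAs SNORA48, SNORD10 and SNORA67 within EIF4A1 have values above 0 in every library, between 2.00 and 11.2 RPKM. The level of EIF4A1 therefore cannot be read from the table. Its paralog EIF4A2 was at 123.5, 105.1 and 93.3 RPKM, with log2 ratios of -0.23 and -0.40. EIF4A3, the paralog in the exon junction complex, was at 59.4, 91.8 and 85.5 RPKM, from 3801, 6437 and 5389 reads, with log2 ratios of 0.62 and 0.52. The level of EIF4A2 was 2.08 times that of EIF4A3 in si-Control and 1.14 and 1.09 times in the si-RBCK1 libraries. The helicase cofactors EIF4H (137.8, 197.5 and 181.5 RPKM) and EIF4B (96.7, 106.7 and 119.9 RPKM) were higher with both siRNAs.

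Among the 4E-BPs, EIF4EBP2 was at 7.97, 9.15 and 11.5 RPKM, with log2 ratios of 0.18 and 0.48. EIF4EBP3 was below the filter, with 2, 14 and 26 reads, and overlaps the read-through entry ANKHD1-EIF4EBP3. EIF4EBP1 is listed at 147.5, 62.3 and 63.5 RPKM, but these listed values do not give the fold change held in the same entry, and no gene length of up to 50000 nt turned them into whole reads. It was the only gene of the 55 with levels above 0 for which this was so, and it was kept out of every summary.

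EIF5A, which relieves ribosomes stalled at runs of proline, was at 364.9, 480.4 and 434.0 RPKM, with log2 ratios of 0.40 and 0.25. Its paralog EIF5A2 was at 14.8, 12.7 and 9.96 RPKM, with log2 ratios of -0.20 and -0.53. The level of EIF5A was 24.7, 37.7 and 43.6 times that of EIF5A2. The entry EIF5AP4, a pseudogene of EIF5A on chromosome 10, was at 2.25, 10.5 and 9.58 RPKM (81, 414 and 340 reads), and how reads were divided between it and EIF5A is not known. EIF6, which keeps the large ribosomal subunit from joining too early, was at 133.0, 118.9 and 128.3 RPKM, from 7212, 7063 and 6852 reads, with log2 ratios of -0.16 and -0.05.

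**Figure D4:**
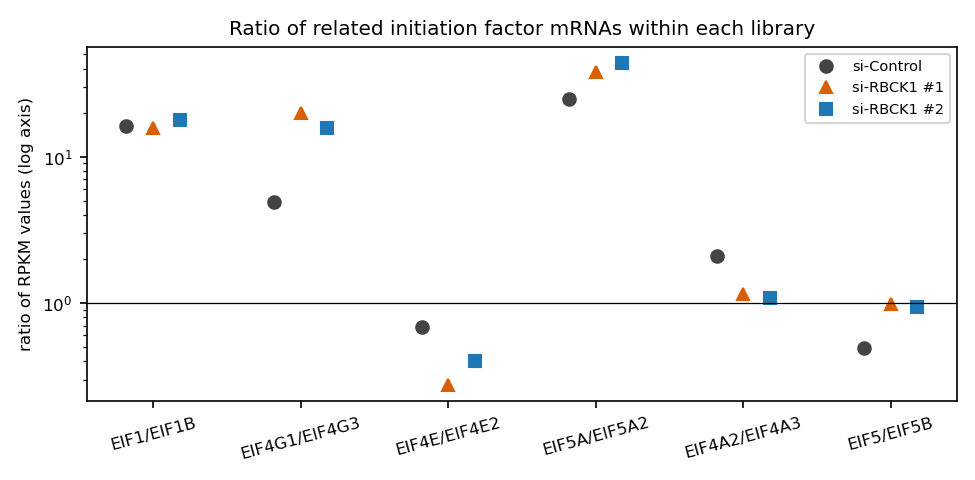
Ratio of the RPKM values of related initiation factor genes within each library (y axis, log axis), for 6 pairs, with si-Control as circles, si-RBCK1 #1 as triangles and si-RBCK1 #2 as squares. EIF1/EIF1B stays between 15.6 and 17.9, whereas EIF4G1/EIF4G3 goes from 4.87 to 19.8 and 15.7 and EIF5/EIF5B from 0.494 to 0.983 and 0.940.

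Ratios of 2 genes within a library do not depend on how the libraries were scaled. Below the filter of 1 RPKM were 6 of the 55 genes, EIF1AY, EIF4A1, EIF4E1B, EIF4E3, EIF4EBP3 and EIF5AL1. Of the germ cell factor EIF4E1B there were at most 4 reads in a library. EIF5AL1, a retrotransposed copy of EIF5A, had 42, 71 and 49 reads, and EIF4E3, a cap-binding relative, had 95, 63 and 84.

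The 2 si-RBCK1 libraries differed for single factors. With 1 library per siRNA, a difference between the siRNAs cannot be told apart from one between libraries. Taken directly, si-RBCK1 #2 against si-RBCK1 #1, the counting interval lay above 0 for 11 of the 48 genes, below 0 for 25 and held 0 for 12, where it lay above 0 for 34.9% and below 0 for 30.8% of protein-coding genes. EIF4E2 differed most, with a log2 ratio on reads of -0.77 (interval -0.85 to -0.69). EIF1AD (-0.43), EIF2B3 (-0.41), EIF5A2 (-0.36), EIF2A (-0.35) and EIF2S1 (-0.33) were also lower with si-RBCK1 #2, and EIF2AK3 (0.34), EIF4EBP2 (0.33), EIF4ENIF1 (0.32) and EIF4G3 (0.31) were higher. EIF4E2 has the 7 capital bases of neither siRNA in its longest transcript, and EIF2S1 has those of both. Of the 48, EIF2AK2, EIF2AK3, EIF2B3 and EIF4ENIF1 lay on opposite sides of si-Control with the 2 siRNAs, none by more than 0.2 in both. These 4 of 48 genes stand beside 1888 of 10775 protein-coding genes on opposite sides. Both ratios share the si-Control library.

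The genes that act with the initiation factors were read from lists. Of 13 genes for ATF4 and its targets, the arm that phosphorylated eIF2 turns on, 12 were lower with each siRNA and 11 with both. Of the 10775 protein-coding genes, 5124 were lower with si-RBCK1 #1, 4892 with si-RBCK1 #2 and 4064 with both. The median log2 ratios of the 13 genes were -0.73 and -0.63. At the 1.5-fold limit, 9 of the 13 were lower with both siRNAs and 0 higher, against 5.89% of protein-coding genes lower. NUPR1, a stress-induced nuclear protein, was at 171.4, 62.7 and 63.0 RPKM, and ASNS, the asparagine synthetase, was at 88.6, 33.0 and 26.5 RPKM. SLC7A11, the cystine transporter, was at 13.4, 4.21 and 4.76 RPKM, and the pseudokinase TRIB3 was at 64.7, 22.5 and 26.7 RPKM. ATF4 itself, whose translation rather than mRNA level is under eIF2 control, was at 134.1, 109.9 and 96.0 RPKM. Among 5 genes for phosphatases that undo eIF2 phosphorylation, PPP1R15A, the stress-induced targeting subunit GADD34, was at 176.2, 87.5 and 72.5 RPKM, or 49.7% and 41.2% of the control. It was the only gene of these 5 past 1.5-fold, with both siRNAs, against 13.5% of protein-coding genes in either direction. The constitutive counterpart of PPP1R15A, PPP1R15B, was at 31.0, 29.2 and 34.4 RPKM.

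Of 13 genes of the mTORC1 branch that passed the filter, 1 was higher and 1 lower by 1.5-fold with both siRNAs, a share near the 13.5% of protein-coding genes. SESN1, an inhibitor of mTORC1, was at 2.68, 10.5 and 7.76 RPKM, and DDIT4, another inhibitor known as REDD1, was at 132.4, 56.3 and 47.7 RPKM. SESN1 and DDIT4 thus lay on opposite sides of si-Control. Next in the ranking, RHEB was lower, at 110.0, 79.2 and 66.0 RPKM, and RPS6KB2 was higher, at 13.9, 20.3 and 17.8 RPKM. MTOR was at 10.3, 13.2 and 11.7 RPKM. Of 15 cap and poly(A) partners, 0 passed 1.5-fold with both siRNAs, against the same 13.5%, and the medians were 0.02 in each. The poly(A)-binding protein PABPC1 was at 819.1, 861.8 and 839.3 RPKM, and its inhibitor PAIP2 at 75.7, 49.8 and 51.7 RPKM. PAIP1 was also lower, at 52.2, 38.7 and 35.3 RPKM. MKNK1 (5.05, 7.91 and 7.52 RPKM) and PABPC4 (61.6, 94.3 and 84.5 RPKM) were higher with both siRNAs. Of 11 elongation and termination factors, 1 passed with both siRNAs (again against 13.5%), EEF1D at 74.7, 115.3 and 118.0 RPKM, and EEF1A1 was at 1878, 1940 and 1774 RPKM.

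**Figure D5:**
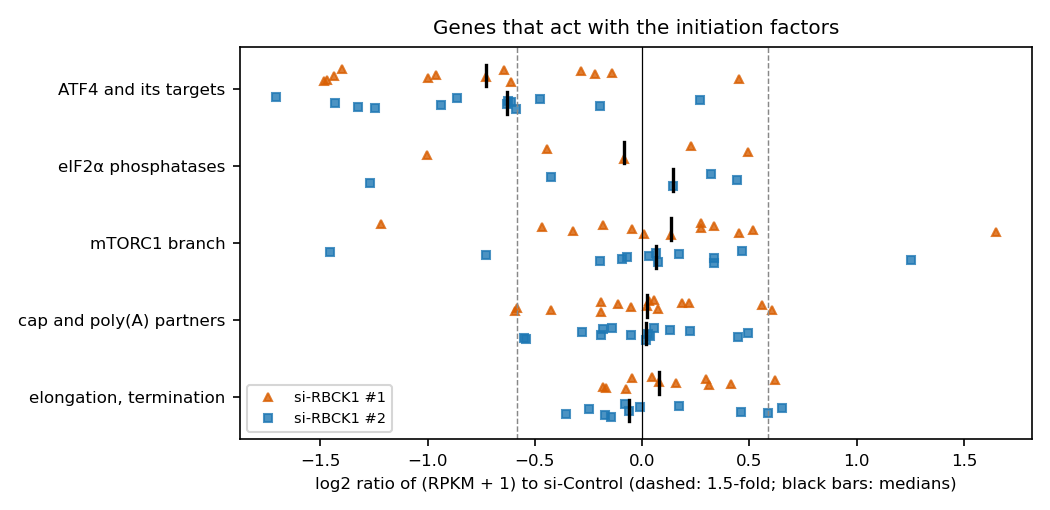
Log2 ratio of RPKM + 1 to si-Control (x axis) for genes that act with the initiation factors, in 5 lists (rows), with si-RBCK1 #1 as triangles and si-RBCK1 #2 as squares. Each point is 1 gene, black bars are medians and dashed lines mark 1.5-fold. The list of ATF4 and its targets lies mostly left of 0, with medians of -0.73 and -0.63, and the medians of the other lists lie between -0.09 and 0.14.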

How the data were processed

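RNA of 3 Caki-1 libraries (si-Control, si-RBCK1 #1 and si-RBCK1 #2, 1 each) was described from the deposited RPKM values, which the authors had scaled to gene length and library size. The submitters' processing notes name FastQC, Trimmomatic, TopHat2 and HTSeq and the build hg19, and the labels describe ribosomal RNA removal, a directional kit and paired-end reads, although the strand setting of the counting and the annotation are not given in the sources used here. Values whose reads fall on overlapping or near-identical genes depend on that counting. The authors' own control, treated, fold change, p-value and q-value columns were not used. On inspection, the fold change of EIF4EBP1 does not follow from its listed values.

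Genes averaging 1 RPKM or more over the libraries were kept, and log2 ratios used a pseudocount of 1 RPKM. With 1 library per condition no p-value was computed. Library totals came from unspliced RNAs of up to 200 nt, and reads from the smallest gene length of up to 50000 nt that gave whole numbers (tolerance 0.002 reads) in all 3 libraries. Of 48 genes, 15 overlap another entry on the same strand, and 24 of the 55 overlap one on the opposite strand. Entries of more than 1 location were left out of this count. The steps were also run on simulated data that held counting error only. Such data have no spread between libraries, so the run cannot speak to that spread. Full values are given for the 10 genes with the largest smaller log2 ratio in 1 direction and for EIF4E, EIF4A1, EIF4G1, EIF2S1, EIF5 and EIF6, and up to 4 genes per partner list by the same ranking plus ATF4, PPP1R15B, MTOR, PABPC1 and EEF1A1, which were picked for their role after their values were seen. EIF4E2 and the other factors are given by role. The members, lists and limits were chosen with earlier results of these data known. Some cell type markers are not reported here. Calculations ran in Python 3.11.15 with scipy 1.17.1, pandas 2.3.3 and numpy 2.4.6, and plots in matplotlib 3.10.9.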

Additional observations from a re-analysis of the deposited data

How the results depend on the processing

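No paired analysis was possible because there was 1 library of each kind and the labels number no replicates. The count of genes past 1.5-fold one way with both siRNAs was 7 under other pseudocounts (0.1 and 5 RPKM), equal medians, equal totals, no filter and a mean of at least 5 RPKM, and 5 of 31 without overlapping genes or near-identical copies. The count for si-RBCK1 #1 was lowest with equal totals, at 8. A limit of 2-fold gave 2, 1 and 0 genes (si-RBCK1 #1, si-RBCK1 #2, both), and a looser one of 0.32 on the log2 scale gave 23, 20 and 15. A stricter or looser limit must change the counts in these directions. With both siRNAs, 2.62% of protein-coding genes passed 2-fold. The share of protein-coding genes was not taken for the other counts at these limits, so they cannot be set against a general rate. The mean in place of the median gave 0.14 and 0.059. No setting turned the overall medians, and the medians of all protein-coding genes moved by less than 0.1 on the log2 scale under the other scalings.

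The small medians of some roles changed sign. For eIF2 and the alternative carriers, si-RBCK1 #1 gave -0.018 with equal totals and -0.056 without overlapping genes, and si-RBCK1 #2 gave -0.062 with the mean. For eIF5A and eIF6, no filter gave 0.0044 and 0.0046, and the mean gave 0.012 with si-RBCK1 #1. The eIF3 median with si-RBCK1 #2 was 0.099 without overlapping genes and 0.13 with the mean. The cause was not tested. EIF6 with si-RBCK1 #2 went to -0.11 with equal medians, and EIF4E to -0.24 with a pseudocount of 5 RPKM. Of 112 ratios of named genes under the alternatives, 25 moved by more than the distance from the middle to the edge of their counting interval and none reversed. Depth limits EIF4EBP3, EIF4E1B, EIF4E3 and EIF5AL1 most, with under 100 reads per library.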
